A study of Mus musculus with 24 samples.

Results

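The complement and coagulation proteins of mouse liver were followed through 43 listed genes, of which 34 had a probe set of their own on the Affymetrix U74Av2 array, among 8251 genes with such a probe set. The members were listed by name and not by any measured value. Probe sets were assigned by current symbol, or by an older alias where no current gene carries it, and the probe set listed as *Hc* stands for complement component 5 (*C5*). A gene with several probe sets is given by its brightest one over all mice, which applied to 9 members. *C1s*, *C3*, *C4b*, *C6*, *C8a*, *C8b*, *Cfd*, *F11* and *Cpb2* were not analysed here. Of the 34 genes, 32 lay above the floor of the intensity scale in all 24 mice, *Masp2* lay at it in 1 mouse, and *Tfpi* lay at it in every mouse, so that *Tfpi* carries no information on any change.

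Whole liver RNA came from 24 male mice aged 9 to 12 weeks on a mixed SV129/C57BL/6 background, 1 mouse per array and 3 mice in each of 8 groups. Wild-type mice and PPARα-null mice, which lack a working *Ppara* gene in all cells, ate control chow or the PPARα agonist WY-14,643 (WY) at 500 ppm for 1 week. Within each strain and diet, 3 mice stayed at room temperature and 3 received a heat shock (HS) of 40 min, at 42 °C in the study's methods and in a chamber of about 43 °C in the sample labels, and livers were taken 4 hours after HS. The groups are called control, HS, WY and WY+HS, and mice carry the numbers 1 to 24 of the labels.

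Hepatocytes make most of the plasma proteins of complement and clotting and release them into blood as inactive precursors. Complement runs from recognition (mannose-binding lectins and their proteases, C1) through the convertases (C2 and factor B) to C5 and the terminal components that form a pore in a target membrane, and it is held in check by C4-binding protein, factor I and C1 inhibitor. Clotting runs through the contact factors and the vitamin K-dependent proteases to thrombin and fibrinogen, with antithrombin and heparin cofactor II as inhibitors and plasmin as the protease that dissolves fibrin. PPARα is a nuclear receptor of fatty acid metabolism, and its agonists are known to lower liver transcripts of some inflammatory plasma proteins, fibrinogen among them.

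The labels were checked first. Intensities are given on a quantile-normalized scale throughout. The control mice of the null strain read 185, 174 and 153 for *Ppara*, and those of the wild-type strain 315, 298 and 357. This difference of -0.92 on the log2 scale did not pass the limma test used below (adjusted p = 0.0594). *Cyp4a14*, a fatty acid hydroxylase induced through PPARα, read between 239 and 443 in wild-type control mice and between 5099 and 5396 after WY. In null mice it read 52.1, 33.1 and 41.4 in controls, and the difference between untreated strains also did not pass that test (adjusted p = 0.052). After WY it read 329 and 241 in null mice 19 and 20 and 45.8 in mouse 21, a change that did not pass the test used below. All 12 measured PPARα target genes of a fixed list rose after WY in wild-type mice. Albumin (*Alb*), the defining hepatocyte product, read between 8198 and 9080 in every mouse. At the top of the quantile-normalized scale values hold little more than rank, so this range does not show that albumin RNA was steady. Mouse 5 of the wild-type HS group stood apart from mice 4 and 6. Its *Cyp4a14* was 1837 against 229 and 273, its *Ppara* was 181 against 306 and 330, and several members described below departed with it. In whole tissue, fewer cells of a type and less RNA per cell cannot be told apart.

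WY lowered most of this gene group in wild-type mice. Of the 34 members, 23 (67.6%) fell and none rose at an adjusted p under 0.05, where 5.19% of all 12422 probe sets were called lower and 5.59% higher. The median log2 change was -0.65 over the members and -0.0060 over the 7154 probe sets above the floor. The 3 WY mice lay below all 3 controls for 30 members, a pattern shown by 12.6% of all probe sets. These calls come from limma with 1 mean per group and Benjamini-Hochberg adjustment over all probe sets, as do all adjusted p-values that follow. Without scaling the arrays to each other, the median of the 7154 probe sets above the floor rose by 0.46 and that of the members was -0.33. This leaves the members 0.79 below those probe sets. In that setting 5 members were called lower and none higher.

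**Figure D1:**
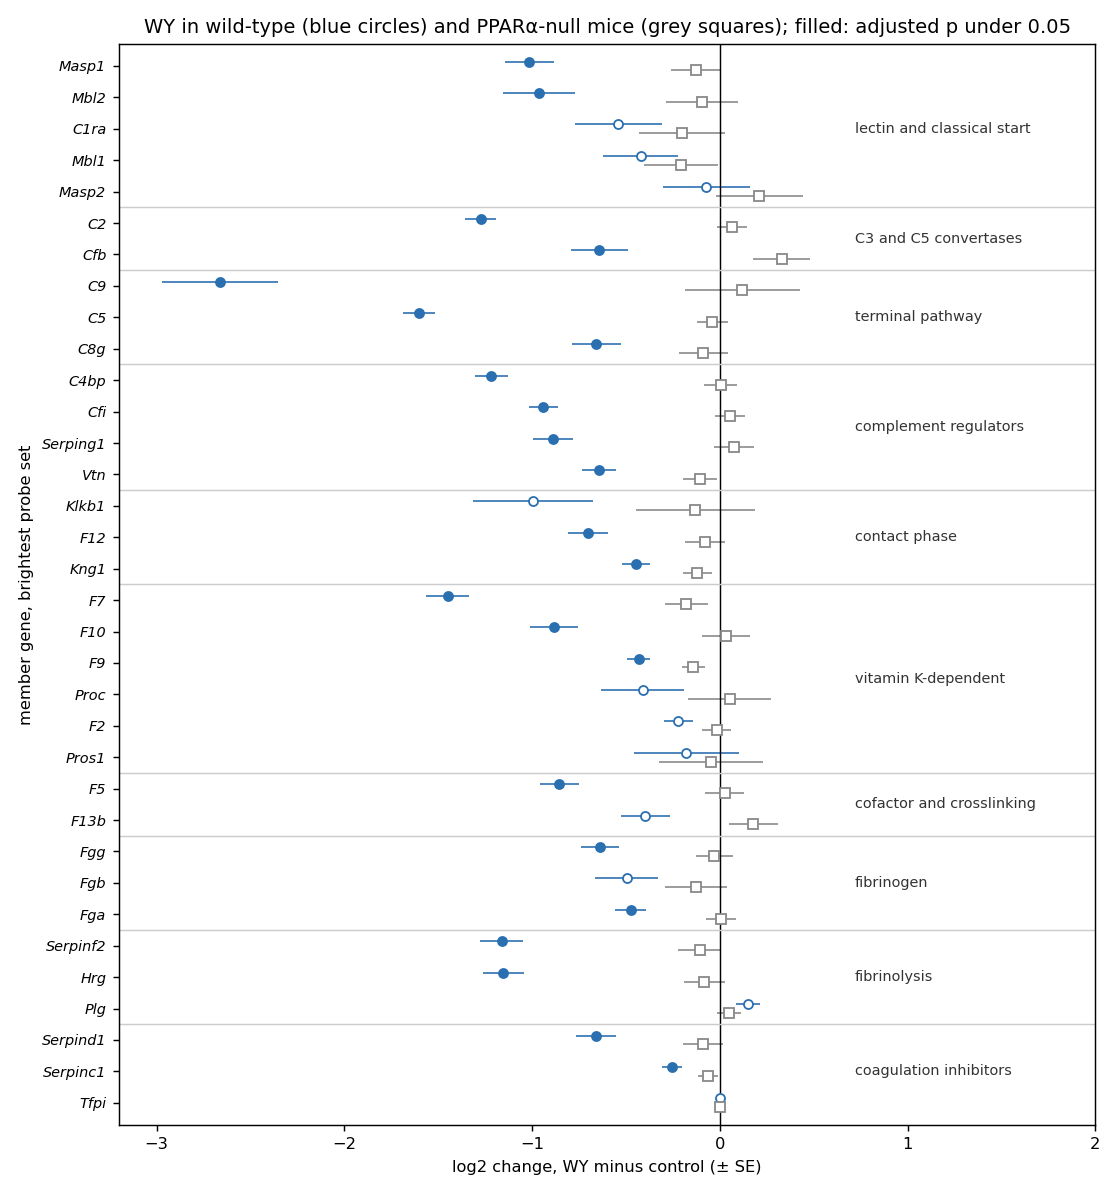
The log2 change after WY (± SE, horizontal axis) of each of the 34 measured members, grouped by role, in wild-type (blue circles) and PPARα-null mice (grey squares), 3 mice per group, with filled symbols for an adjusted p under 0.05. In wild-type mice 23 symbols are filled, all to the left of 0, and *C9* lies farthest at -2.66, while no symbol of the null mice is filled.

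The terminal pathway fell furthest, with all 3 measured members called. *C9*, the component that polymerizes into the pore, read 1979, 2011 and 2281 in control mice and 456, 279 and 281 after WY. The groups were far apart, a fall to 15.8% of the control mean on the log2 scale (log2 change -2.66 ± 0.31 SE, adjusted p = 1.47e-05). *C5*, whose cleavage releases a chemoattractant peptide and starts pore assembly, read 1563, 1614 and 1793 in controls and 566, 555 and 514 after WY. Its change was -1.60 ± 0.08 (adjusted p = 9.93e-10), the smallest p among the members in this comparison. *C8g*, the gamma chain of component 8, fell less, from between 2779 and 3194 to between 1837 and 1929 (-0.66 ± 0.13).

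Of the vitamin K-dependent proteins, 3 of 6 fell. Factor VII (*F7*), the protease that starts clotting with tissue factor, read 469, 542 and 528 in controls and 216, 171 and 177 after WY. Its log2 change was -1.45 ± 0.11 (adjusted p = 2.03e-07), and its second probe set gave -1.77 (adjusted p = 1.56e-05). Factor X (*F10*), the next gene along the chromosome from *F7*, fell by 0.88 on the log2 scale and factor IX (*F9*) by 0.43, although *F9* changed by 0.066 with no scaling between arrays. Prothrombin (*F2*), protein C (*Proc*) and protein S (*Pros1*), the last 2 being anticoagulants, did not pass the test, with changes of -0.22, -0.41 and -0.18.

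The sequences just upstream of the start are shown for the members with the largest falls after WY, to set beside the figures for all promoters, and for *Masp2*, which is described further on for HS in null mice. They are the 250 bases before the RefSeq start on the build GRCm38.p6, 5′ to 3′ on the gene's strand. Capitals mark the HNF1 core motif GTTAAT, the C/EBP motif TTGCNNAA, the nuclear receptor motif AGGTCA and the heat shock pentamer pair GAANNTTC on either strand, none overlapping another here.
*C9*, chr15:6445096-6445345, plus strand: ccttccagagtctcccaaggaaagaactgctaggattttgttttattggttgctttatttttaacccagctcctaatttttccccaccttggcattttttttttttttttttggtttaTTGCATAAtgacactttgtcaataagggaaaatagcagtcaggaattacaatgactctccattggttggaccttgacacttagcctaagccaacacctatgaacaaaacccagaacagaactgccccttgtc
*C5*, chr2:35061413-35061662, minus strand: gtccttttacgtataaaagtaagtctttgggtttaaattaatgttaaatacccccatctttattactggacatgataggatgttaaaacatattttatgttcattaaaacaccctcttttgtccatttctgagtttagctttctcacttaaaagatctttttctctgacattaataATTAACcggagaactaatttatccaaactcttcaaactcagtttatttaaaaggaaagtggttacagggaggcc
*F7*, chr8:13025784-13026033, plus strand: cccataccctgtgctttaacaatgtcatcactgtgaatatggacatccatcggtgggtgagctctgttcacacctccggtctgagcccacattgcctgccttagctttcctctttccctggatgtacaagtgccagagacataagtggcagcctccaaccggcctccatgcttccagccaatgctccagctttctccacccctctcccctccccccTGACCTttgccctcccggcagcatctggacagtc
*Masp2*, chr4:148602294-148602543, plus strand: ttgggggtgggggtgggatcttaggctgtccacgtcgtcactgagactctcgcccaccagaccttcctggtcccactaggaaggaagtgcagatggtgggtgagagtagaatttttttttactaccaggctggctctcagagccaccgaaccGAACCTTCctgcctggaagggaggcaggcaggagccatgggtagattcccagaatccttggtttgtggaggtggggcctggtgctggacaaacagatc
The C/EBP motif of *C9* spans the bases from -132 to -125, the HNF1 core motif of *C5* those from -74 to -69 and the pentamer pair of *Masp2* those from -98 to -91. A window reaching 50 bases past the start was given for 26 of the 34 members. The HNF1 core motif was in 8 of these 26 genes (30.8%) and in 8.24% of all 27025 genes, the C/EBP motif in 8 (30.8%) and 12.2%, and AGGTCA in 10 (38.5%) and 18.1%. The fibrinogen-type interleukin-6 element CTGGGA was in 15 (57.7%) and 34.8%, and the pentamer pair in 3 (11.5%) and 9.04%. The direct repeat of AGGTCA with 1 base between was in none of the 26 and in 0.0481% of all genes. A match is a description of the letters and not a binding site.

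Both convertase proteases fell. *C2*, the protease of the classical and lectin convertases, read 478, 398 and 368 in controls and 170, 173 and 168 after WY (-1.27 ± 0.08, adjusted p = 1.6e-08). A second, dim probe set of *C2*, at the floor in 7 mice, gave 0.07 and did not pass the test. With the mean of both probe sets the fall of *C2* was not called. Factor B (*Cfb*), its neighbour on the chromosome and the protease of the alternative convertase, fell by 0.64 on the log2 scale with its brightest probe set. Its second, dimmer probe set gave 0.81 (adjusted p = 0.101), and the mean of both gave 0.09, so the fall of *Cfb* rests on 1 probe set.

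All 4 measured complement regulators fell. C4-binding protein (*C4bp*), which helps factor I to cut C4b, read 1120, 1082 and 1228 in controls and 497, 502 and 476 after WY (-1.22 ± 0.09, adjusted p = 9.23e-08). Factor I (*Cfi*), the protease that inactivates C3b and C4b, fell by 0.94 on the log2 scale. C1 inhibitor (*Serping1*), which also blocks plasma kallikrein, fell by 0.89 and vitronectin (*Vtn*), which keeps the pore from inserting, by 0.64. At the start of the cascade 2 of 5 genes fell. *Masp1*, a protease bound to the lectins, went from between 150 and 182 to between 72 and 97 (-1.01 ± 0.13), and *Mbl2*, a mannose-binding lectin, fell by 0.96. *Mbl1*, the other lectin, changed by -0.42 and *C1ra*, a protease of C1 with a close copy (*C1rb*) that its probe set may also read, by -0.54, and neither passed the test although their WY mice lay below all controls. *Masp2*, the lectin-bound protease that cuts C4 and C2, read between 96.9 and 117 in controls and between 88.95 and 119 after WY, so these groups overlapped.

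**Figure D2:**
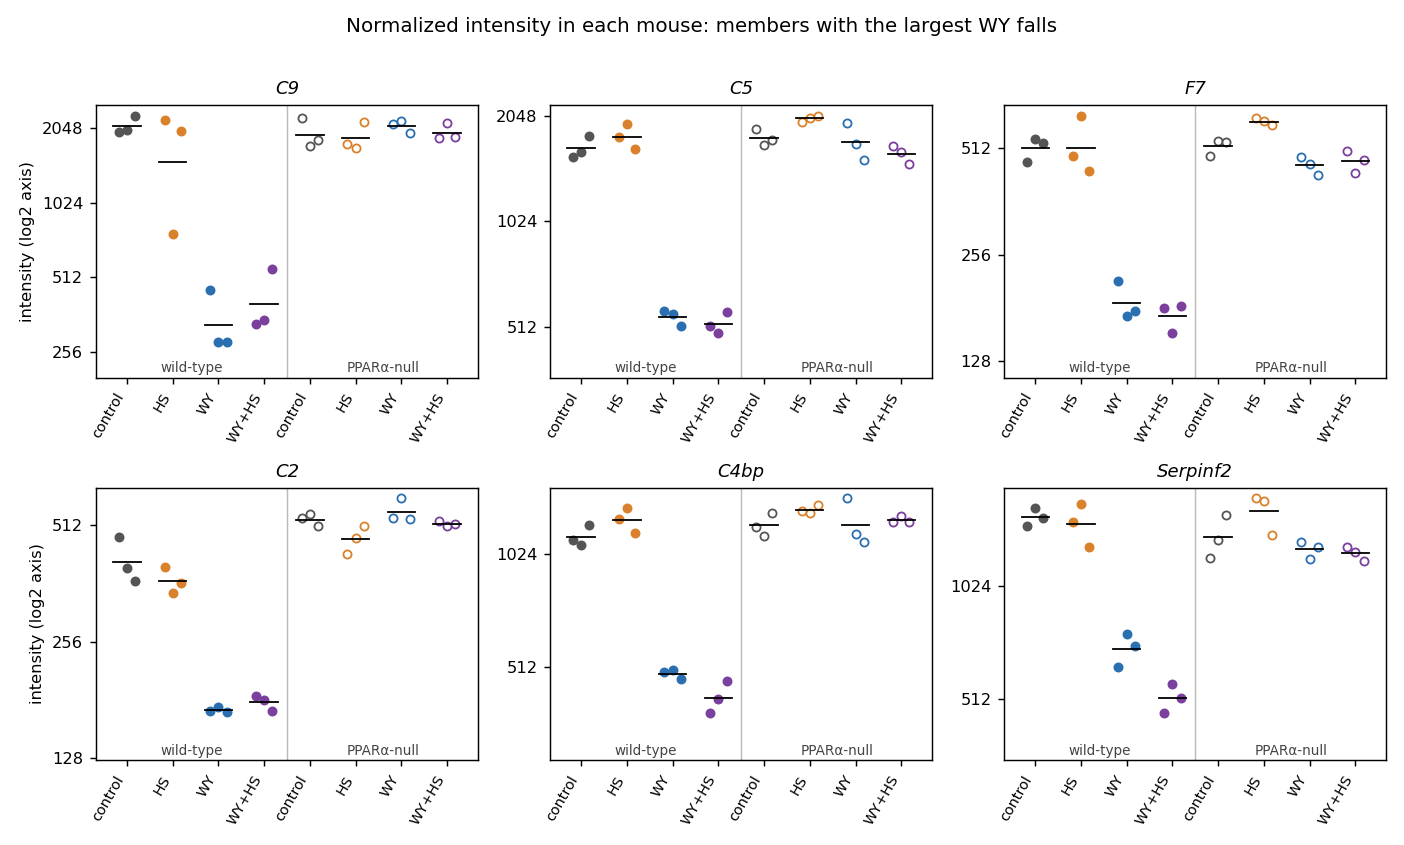
Normalized intensity (vertical axis, log2 scale) of 6 members with the largest falls after WY in each of the 24 mice, by treatment and strain, with a bar at the geometric mean of each group of 3. In the wild-type WY and WY+HS groups all points lie below all control points, and in the null groups the points of WY mice lie among or near those of their controls.

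The genes of fibrinolysis and its control split by gene. Alpha-2-antiplasmin (*Serpinf2*), the main inhibitor of plasmin, read 1474, 1647 and 1554 in controls and 622, 764 and 710 after WY (-1.16 ± 0.11, adjusted p = 2.35e-06). Its second, dimmer probe set gave -0.14 and did not pass the test. Histidine-rich glycoprotein (*Hrg*), which binds plasminogen and heparin, fell to 45.0% of its control mean (-1.15 ± 0.11, adjusted p = 1.95e-06). Plasminogen (*Plg*) changed by 0.15 with its brightest probe set (adjusted p = 0.181), which ranked between 1 and 26 among all probe sets of each array, at the top of the scale where normalized values hold little more than rank. Its second probe set read 3649, 4143 and 4339 in controls and 3021, 2686 and 2779 after WY and fell by 0.51 on the log2 scale (adjusted p = 0.012).

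Of the contact factors, factor XII (*F12*) fell by 0.70 and kininogen (*Kng1*), the precursor of bradykinin, by 0.45. Prekallikrein (*Klkb1*) read 350, 372 and 335 in controls and 177, 170 and 184 after WY, 50.2% of the control mean, a change that did not pass the test (SE 0.32 on the log2 scale, adjusted p = 0.0577). The SE comes from the spread within all 8 groups, and that of the null control mice ran from 191 to 401. Factor V (*F5*), the cofactor of factor X, fell by 0.86, and the B subunit of factor XIII (*F13b*), which carries the fibrin-crosslinking enzyme, changed by -0.40 (adjusted p = 0.065).

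Of the fibrinogen chains 2 of 3 fell, and both measured thrombin inhibitors did. The gamma chain of fibrinogen (*Fgg*) read 3545, 3786 and 3786 in controls and 2448, 2359 and 2335 after WY (-0.64 ± 0.10). The alpha chain (*Fga*) fell by 0.47, and the beta chain (*Fgb*) changed by -0.50 without passing the test (adjusted p = 0.07). All 3 lie side by side on chromosome 3, and in each of them the WY mice lay below all controls. Heparin cofactor II (*Serpind1*) fell by 0.66, and antithrombin (*Serpinc1*), the main inhibitor of thrombin, fell to 83.8% of its control mean (-0.25 ± 0.06), the smallest called change.

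Other genes of the same systems, taken from fixed lists that hold no members, were counted in the same comparison. Some lists share genes, so their counts are not separate. *Ambp* is in the clotting and the plasma protein lists, and *Vwf* is in the clotting and the endothelial lists. Of 17 other complement genes, 2 fell after WY in wild-type mice, the regulator *Cfhr2* (-0.66) and clusterin (*Clu*, -0.56), and none rose. Of 25 other clotting genes 6 fell and 3 rose. Those that fell included 2 enzymes of the vitamin K cycle, the carboxylase *Ggcx* (-1.14, from a mean of 231 to 105) and the reductase *Vkorc1* (-0.54), and *Serpina10* (-1.19), a serpin that inhibits activated factor X with protein Z as cofactor. Annexin A2 (*Anxa2*), a cell-surface plasminogen receptor, rose by 2.75 on the log2 scale, from a mean of 80.4 to 538. Among 23 acute phase genes 13 fell and none rose, and among 16 other plasma proteins of hepatocytes 10 fell and none rose, while the summed intensity of the latter moved from between 72960 and 73920 to between 61290 and 61680. No Kupffer cell marker of 12 was called, and their sum ran from 920 to 1132 in controls and from 590 to 888 after WY. Of 10 endothelial markers *Kdr* and *Eng* fell, and the sum ran from 960 to 1145 in controls and from 635 to 740 after WY. All 10 endothelial markers were above the floor in at least 1 mouse, the Kupffer markers *Adgre1* and *Aif1* were at it in all mice, and the part of other cells in the members' changes was not tested.

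Adding HS to the WY diet left the members low. Against control, 27 of 34 (79.4%) were lower in WY+HS mice and none higher, where 5.38% of all probe sets were called lower, and the median log2 change over the members was -0.77. The same controls serve this comparison and the previous one. All 23 genes called after WY were called here, with *F13b*, *F2*, *Klkb1* and *Plg* in addition. *C9* read 332, 345 and 552, *C5* read 513, 491 and 564 and *Serpinf2* read 471, 562 and 517, all below the control mice. *Cfi* was at 739, 684 and 707, against 1019, 933 and 931 on WY alone.

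The direct test of HS among WY-fed wild-type mice called 2 of 34 members, both lower, where 0.153% of all probe sets were called lower. *Cfi* fell by a further 0.44 on the log2 scale (SE 0.08, adjusted p = 0.0188). The brightest probe set of *Plg* read 7790, 8198 and 8198 on WY and 6678, 5239 and 5920 in WY+HS mice (-0.45 ± 0.06, adjusted p = 0.00227). With arrays scaled to a common median, *Plg* changed by 0.09 and *Cfi* by -0.34 (adjusted p = 0.206), so neither call held. In 10 members the WY+HS mice lay below all WY mice, against 5.26% of all probe sets, and 10 members had an unadjusted p under 0.05, all lower, against 4.46% of all probe sets lower at that threshold.

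HS alone brought no member past the test in wild-type mice. limma called none of the 34, against 0.0403% of all probe sets, and the test described in the study's methods also called none. At an unadjusted p under 0.05, *Mbl1* (-0.48) and *F12* (-0.28) were lower and none was higher, against 2.55% of all probe sets lower at that threshold. The median over the members was -0.06. Mouse 5 lay far from the other 2 in several members. Its *C9* was 761 against 2215 and 1998 in mice 4 and 6, its *Proc* 862 against 1805 and 1750, its *C8g* 1883 against 2956 and 3258 and its *F12* 769 against 1129 and 1078. Its fibrinogen chains were higher, with *Fgg* at 5099 against 4055 and 3727. Without mouse 5, again none of the 34 members was called.

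**Figure D3:**
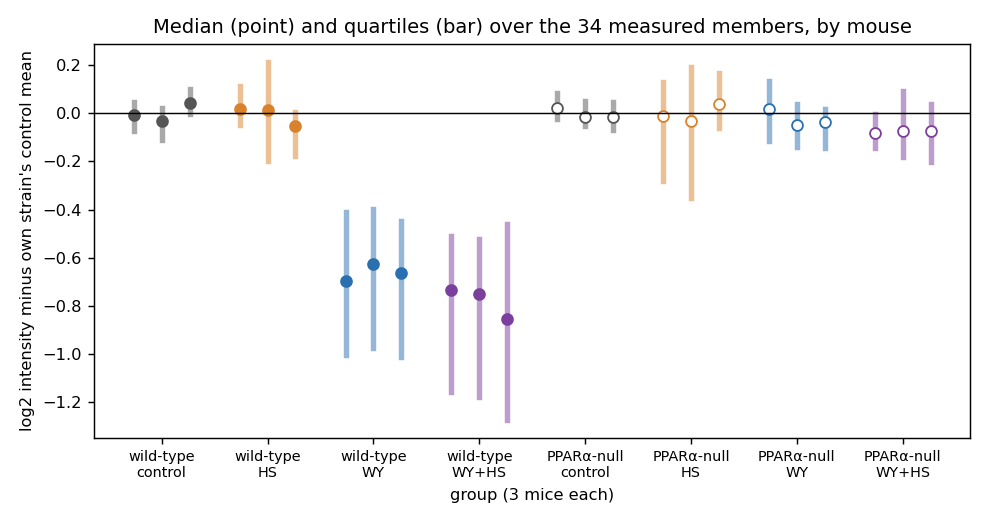
For each mouse, the median (point) and quartiles (bar) over the 34 measured members of the log2 intensity minus the control mean of the same strain, with 3 mice per group and filled points for wild-type mice. The medians of WY and WY+HS wild-type mice lie between -0.86 and -0.63 and those of all other mice between -0.08 and 0.04. Mouse 5, the middle point of wild-type HS, has a bar from -0.20 to 0.21. The bars of null HS mice 16 and 17 run from -0.28 to 0.13 and from -0.35 to 0.19.

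After WY in PPARα-null mice no member passed the test. limma called 0 of 34, against 0.00805% of all probe sets, the methods' test called 0, and at an unadjusted p under 0.05 *Cfb* was higher (0.33) and *F9* lower (-0.14), against 3.45% of all probe sets in either direction. The changes of the 34 members ran from -0.21 to 0.33. *C9* read 2237, 1733 and 1831 in null control mice and 2135, 2179 and 1957 after WY, *C5* read 1883, 1687 and 1750 and then 1949, 1707 and 1536, and these groups overlapped. *F7* read 487, 535 and 533 in null controls and 483, 462 and 429 after WY, every WY mouse below every control, with a change of -0.18 that did not pass the test. In WY+HS null mice limma and the methods' test again called none against control (0.0161% of all probe sets), with 3 members lower and none higher at an unadjusted p under 0.05, against 2.35% of all probe sets lower.

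The difference between strains was tested directly, as the change after WY in null mice minus that in wild-type mice. It was above 0 for 18 of 34 members (52.9%) and below 0 for none, where 2.19% of all probe sets were called above 0 and 2.94% below. All 18 are among the 23 genes that fell in wild-type mice. The largest differences were 2.78 ± 0.43 for *C9* (adjusted p = 0.000681), 1.56 ± 0.12 for *C5* (adjusted p = 2.89e-07), 1.34 ± 0.12 for *C2* and 1.27 ± 0.16 for *F7*. The other 5 genes that fell, *C8g*, *F9*, *Kng1*, *Mbl2* and *Serpinc1*, did not pass, with differences from 0.19 to 0.87 and adjusted p from 0.0677 to 0.226, so for them a difference between strains was not shown. The median difference over all members was 0.59, and 0.02 over the probe sets above the floor.

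HS in PPARα-null mice changed a small set of members. Of 34, 4 fell and 1 rose, where 3.89% of all probe sets were called lower and 3.18% higher, and the median over the members was -0.02. With arrays scaled to a common median 8 were lower and 0 higher. *Masp2* read 74.3, 86.5 and 82.2 in null control mice and 15.7, 28.5 and 29.5 after HS. Mouse 16 was at the floor, and all HS mice lay below all controls (-1.77 ± 0.23, adjusted p = 0.000203). A higher floor, at the size of the 5th percentile, gave -1.25. *F10* read 1369, 1442 and 1309 in null controls and 773, 984 and 871 after HS (-0.65 ± 0.13, adjusted p = 0.00526). *F5* read 1023, 1206 and 1148 and then 702, 640 and 906 (-0.60 ± 0.10, adjusted p = 0.00199), and *F13b* read 300, 331 and 337 and then 198, 198 and 267 (-0.56 ± 0.13, adjusted p = 0.0149). For these genes no HS mouse reached the level of a control.

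**Figure D4:**
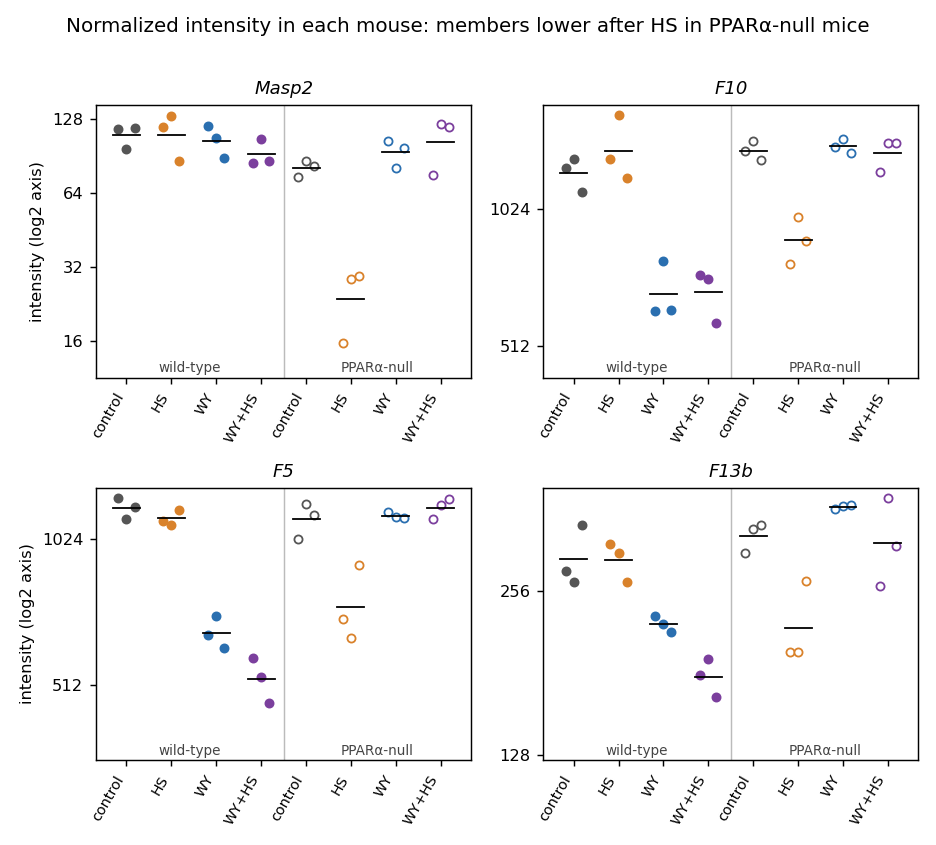
Normalized intensity (vertical axis, log2 scale) of *Masp2*, *F10*, *F5* and *F13b* in each of the 24 mice, by treatment and strain, with a bar at the geometric mean of each group of 3. In null mice the HS points lie below all control points, while in wild-type mice *F10* and *F5* fall on the WY diet and the *Masp2* groups of control and WY mice overlap.

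These falls do not all stand on the same evidence. *F10* has a second, dimmer probe set, which read 108, 91.0 and 106 in null controls and 132, 116 and 103 after HS (0.20, adjusted p = 0.871), although after WY in wild-type mice it fell by 1.33 (adjusted p = 0.00044). *Plg* rose by 0.29 with its brightest probe set (adjusted p = 0.0117) and fell by 0.45 with its second (adjusted p = 0.0388), which read 3404, 3479 and 3167 in null controls and 2169, 2096 and 3258 after HS. The direction for *Plg* is therefore not settled. When only the arrays compared were fitted, none of the 5 calls held. Without mouse 14, mouse 16 or mouse 17 *F13b* did not pass, with adjusted p up to 0.0834.

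**Figure D5:**
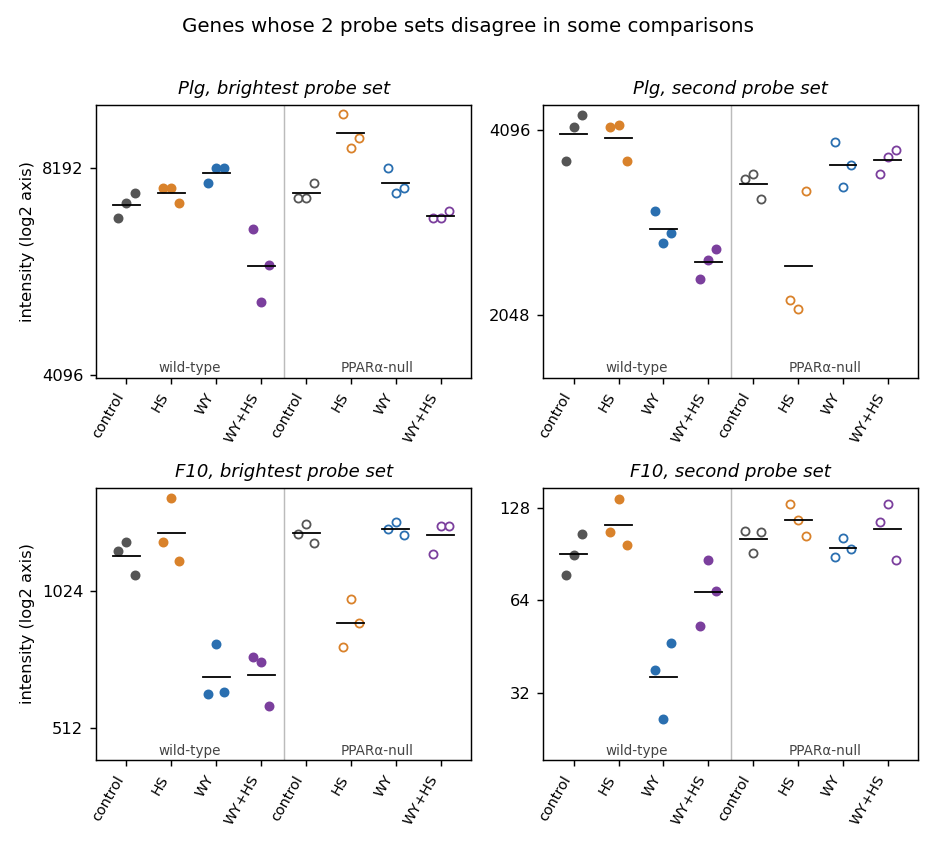
Normalized intensity (vertical axis, log2 scale) of the brightest and the second probe set of *Plg* and of *F10* in each of the 24 mice, with a bar at the geometric mean of each group of 3. For *Plg* after HS in null mice the brightest probe set is above its controls and the second is lower in mice 16 and 17, and for *F10* the second probe set falls after WY in wild-type mice but not after HS in null mice.

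Other genes moved in the same null HS mice, and most called genes of the clotting and acute phase lists moved up. Of the 25 other clotting genes 5 rose and 1 fell. *Gas6*, a vitamin K-dependent growth factor, rose by 1.34 on the log2 scale, *Anxa2* by 1.21, von Willebrand factor (*Vwf*) by 1.04, *Serpina10* by 0.83 and the thrombin receptor *F2r* by 0.82, while *Lman1*, part of the carrier of factors V and VIII out of the endoplasmic reticulum, fell by 0.63. Of 23 acute phase genes *Saa3* (2.78), *Lbp* (1.00) and *Cd14* (from a mean of 62.6 to 157) rose and none fell, and of 17 other complement genes none was called. *Hnf4a*, a transcription factor of hepatocytes, read 80.3, 228 and 77.5 in null controls and 40.7, 29.7 and 29.9 after HS (-1.76, adjusted p = 0.0119). Of 14 leukocyte markers 4 rose. By group mean *Ms4a1* went from 607 to 951, *Cd4* from 48.7 to 232, *S100a8* from 23.1 to 78.0 and *S100a9* from the floor to 38.5. The summed intensity of all 14 went from between 911 and 1184 to between 1552 and 1768. *Ptprc*, *Cd3e*, *Cd8a* and *Ncf1* were at the floor in all mice. Of 10 stellate cell and fibroblast markers 4 rose, with a sum from between 1454 and 1786 to between 2060 and 2750, of 10 endothelial markers 2 rose and of 12 Kupffer cell markers 1, *Ctss*. Of the 16 hepatocyte plasma proteins 2 fell, and their sum went from between 72480 and 74740 to between 68020 and 70070. The part of these shifts in the members' changes was not tested.

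The test of the HS change in null mice minus that in wild-type mice called 2 of 34 members, *Masp2* (-1.78 ± 0.33, adjusted p = 0.011) and *F10* (-0.82 ± 0.18, adjusted p = 0.0333), where 0.942% of all probe sets were called below 0. *Masp2* read 118, 131 and 86.4 in wild-type HS mice, across the range of their controls. The difference for *F10* was not called without mouse 5, or without any of 6 other mice taken singly, with adjusted p up to 0.0889. For *F5* the difference was -0.53 (adjusted p = 0.0875) and for *F13b* -0.56 (adjusted p = 0.155).

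In null mice that had eaten WY before HS, the members low after HS alone were near the control level. *Masp2* read 75.6, 122 and 118 in WY+HS null mice, 2.12 ± 0.23 above HS alone (adjusted p = 2.5e-05). *F5* was 0.68 and *F10* 0.64 above, and *F13b* was 0.52 above with overlapping groups. The call of *F13b* was lost without any of 4 mice taken singly (adjusted p up to 0.0908). That of *F10* was lost with the mean of its probe sets, the second of which read 132, 116 and 103 after HS and 115, 132 and 86.7 after WY+HS. This comparison shares its HS mice with the one before. In all, 4 members were higher and 5 lower with WY among heat-shocked null mice, where 6.05% of all probe sets were called higher and 5.14% lower. With a common median 7 were higher and 0 lower, so the lower calls rest on the scaling. Those lower were *Cfi* (-0.41), *Plg* (-0.40, but 0.0059 with a common median), *F7* (-0.37), *Serpinf2* (-0.37) and *C5* (-0.34). *C5* read 1973, 2026 and 2048 after HS and 1683, 1614 and 1495 after WY+HS in these mice. *F7* and *Serpinf2* had adjusted p of 0.0458 and 0.0466. *F7* did not pass when any 1 of the 6 mice compared was left out (adjusted p up to 0.159). *Serpinf2* did not pass without any of 5 of them taken singly (up to 0.173).

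Without treatment 1 member, *C2*, was called between the strains, higher in null mice (0.36 ± 0.08, adjusted p = 0.0476), where 0.322% of all probe sets were called higher, and it read 534, 549 and 509 in null controls. This call was lost under most other settings. *C1ra* was at 369, 504 and 473 in the null controls against 307, 204 and 196 in the wild-type controls, a difference of 0.95 ± 0.23 (adjusted p = 0.068). *Pros1* was at 120, 80.3 and 82.0 against 49.6, 54.9 and 75.3 (0.65, adjusted p = 0.411). In both genes all null controls lay above all wild-type controls, as in 6.72% of probe sets. After HS 5 members were higher and 5 lower in null than in wild-type mice, where 7.12% and 7.69% of probe sets were called. With a common median 0 were higher and 5 lower, and with no scaling 0 and 9. *Masp2* (-2.22), *F10* (-0.65), *F5* (-0.61), *F13b* (-0.42) and *Serping1* (-0.34) were lower, and *C1ra* (0.71), *C2* (0.36), *Plg* (0.29), *Cfi* (0.28) and *F9* (0.26) higher, but with no scaling between arrays *C2*, *Plg*, *Cfi* and *F9* were between -0.43 and -0.27. The call of *C1ra* was lost when any 1 of the 6 mice compared was left out (adjusted p up to 0.183). Those of *Cfi*, *F13b* and *Serping1* were each lost without any of 4 mice taken singly. Without mouse 5, 9 members were called, 7 of them in common.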

How the data were processed

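Liver RNA of 24 mice, 1 per array, was measured on Affymetrix U74Av2 arrays. The methods name GeneChip Operating Software for the cel files, which the authors analysed in Rosetta Resolver. The deposited values were taken as linear intensities from their range, and the step that made them is not stated. Of these 24.15% lie at or below 0, so background signal had been subtracted, and array medians run from 15.2 to 40.5, so arrays were not at a common level. The sources used here do not give how probes were summarised or arrays scaled. Of 12488 probe sets, 66 controls hold no value and 12422 were tested. Symbols came from the platform's annotation, in which 10833 of these carry 1 gene, 396 carry several and 1193 carry none. The 3 member probe sets shared with another gene were left out.

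All 24 arrays were quantile normalized together, floored at 15.74 (the size of the 10th percentile, which is negative) and taken to log2. After this 42.9% of the values lie at the floor. limma 3.58.1 (R 4.3.3) fitted the 8 group means to all arrays, leaving 16 residual degrees of freedom with 0.39 more from the prior, with Benjamini-Hochberg adjustment over all probe sets at 0.05. A value after ± is a standard error of a log2 difference between groups of 3 mice. Fold changes of genes near the floor are understated. Alternatives were a common median, other floors, an asinh scale, trend and robust moderation, array weights, a filter on dim probe sets, a stricter threshold, the mean of a gene's probe sets, a fit of the compared arrays only, leaving out each mouse, and the test in the study's methods, which is analysis of variance over all 8 groups and then Scheffe's test. Arrays without scaling were added after seeing the data. The fit was tested on simulated arrays. Promoter sequences are RefSeq's on GRCm38.p6. Every member may be named. The plan gave values by mouse for up to 5 called rises and 5 called falls of largest change per comparison. From each other list it allowed up to 3 called genes per comparison, plus *Ppara*. The text goes beyond this plan with values by mouse for further members, such as *Serpinf2*, *Fgg* and *Klkb1*. It also names more than 3 other clotting genes and more than 3 leukocyte markers. The clotting genes named after WY leave out *Hgfac* (-1.61), the largest fall of their list in wild-type mice. The members and lists were chosen with earlier results of these data known.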

Additional observations from a re-analysis of the deposited data

Results flagged for a closer look

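The response to a treatment differed between the strains in 20 results by limma's test of that difference, the change in PPARα-null mice minus that in wild-type mice on the log2 scale. For WY there were 18, all above 0 and all in genes that fell in wild-type mice. Among complement genes these were 2.78 for *C9*, 1.56 for *C5*, 1.34 for *C2*, 1.22 for *C4bp*, 0.99 for *Cfi*, 0.97 for *Cfb*, 0.96 for *Serping1*, 0.89 for *Masp1* and 0.54 for *Vtn*. Among genes of clotting and fibrinolysis they were 1.27 for *F7*, 1.07 for *Hrg*, 1.05 for *Serpinf2*, 0.92 for *F10*, 0.88 for *F5*, 0.62 for *F12*, 0.61 for *Fgg*, 0.57 for *Serpind1* and 0.48 for *Fga*. The call of *Serpind1* was lost without any of 10 mice taken singly, that of *Fga* without any of 3, that of *F12* without either of 2 and that of *Vtn* without mouse 3 (adjusted p up to 0.0946). With the mean of a gene's probe sets *C2*, *Cfb* and *Serpinf2* were not called, and the second probe set of *Cfb* gave -0.38. With a common median *Cfb*, *F12*, *Fga* and *Serpind1* were not called. For HS the differences were -1.78 for *Masp2* and -0.82 for *F10*.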

How the results depend on the processing

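Of 97 results for single genes, settings other than leaving out a mouse left 952 values with their direction and side of the threshold, lost the call in 200 and turned the direction in 12, while leaving out 1 mouse kept 627, lost 75 and turned 0. The falls after WY in wild-type mice numbered 23 without any 1 mouse, and 5 with no scaling between arrays, a setting chosen after seeing the data. Without scaling there were also 18 calls for HS on the WY diet (2 as reported), 1 for HS in null mice (5), 1 for WY under HS in null mice (9), 0 between untreated strains (1), 0 for HS by strain (2) and 1 for WY by strain (18). With a common median these counts were 0 for HS on the WY diet, 8 for HS in null mice, 0 between untreated strains and 5 between strains after HS (10). With the asinh scale they were 0 for HS on the WY diet, 0 between untreated strains, 4 between strains after HS and 1 for HS by strain. At an adjusted p under 0.01 they were 1 for HS on the WY diet, 3 for HS in null mice, 5 for WY under HS in null mice, 0 between untreated strains, 6 between strains after HS and 0 for HS by strain. With the mean of a gene's probe sets they were 1, 3, 5, 0, 6 and 1 in the same order, and with only the arrays compared 0, 0, 0, 0, 2 and 0, with fewer residual degrees of freedom. For HS on the WY diet the filter on dim probe sets gave 1 and array weights gave 4. The methods' test gave 5 for WY under HS in null mice and 5 between strains after HS. The 5th percentile floor and trend and robust moderation each gave 0 between untreated strains.

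Leaving out 1 mouse gave 0 to 0 calls for HS in wild-type mice, 23 to 23 for WY, 26 to 27 for WY+HS and 1 to 3 for HS on the WY diet. In null mice it gave 3 to 8 for HS, 0 to 0 for WY, 0 to 0 for WY+HS and 5 to 10 for WY under HS. Between strains it gave 0 to 2 untreated, 6 to 9 after HS, 1 to 4 for HS by strain and 15 to 18 for WY by strain. The count for HS on the WY diet was 1 without mouse 7 or mouse 11. That for HS in null mice was 3 without mouse 14 or mouse 16 and 8 without mouse 18, that for WY under HS in null mice 5 without mouse 17 or mouse 24, and that between strains after HS 6 without mouse 17. The count for HS by strain was 1 without any of mice 1, 3, 4, 13, 14 or 16 and 4 without mouse 18. Between untreated strains it was 2 without mouse 1 and 0 without any other.

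Turned values on the log2 scale were, with the mean of probe sets, 0.086 for *Cfb* after WY and 0.043 after WY+HS in wild-type mice, and for *Plg* -0.079 after HS in null mice, 0.089 for WY under HS in null mice and -0.20 between strains after HS. With a common median *Plg* gave 0.095 for HS on the WY diet and 0.0059 for WY under HS in null mice. Without scaling *F9* gave 0.066 after WY in wild-type mice, and between strains after HS *C2* gave -0.28, *Cfi* -0.35, *F9* -0.43 and *Plg* -0.27. That setting moved the median of the 7154 probe sets above the floor by -0.67 for HS on the WY diet and by -0.50 between strains after HS. The cause of the other changes was not tested. Signal over background limits *Tfpi*, at the floor in all mice, and *Masp2*, at it in 1, and the number of arrays limits the precision. No paired analysis was possible because the mice of different groups share no number, litter or other label.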
